A study of Mus musculus with 23 samples.

Results

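The 9 primary tumors of this series were ordered by how strongly they transcribed hypoxia genes, and the other genes of the same tumors were followed along that order. The order is a hypoxia index, the mean over Car9, Bnip3, Egln3, Ndrg1, Ankrd37 and Vegfa of log2(RPKM + 1), each gene standardized over the 9 tumors. RPKM is the read count of a gene scaled to the gene's length and to the total counts of the library. These 6 genes were set aside, and among the 48895 genes measured, 17772 others had at least 10 counts in at least 5 tumors and were compared with the index. The 9 tumors are 9 of 23 RNA-seq libraries. The other libraries are the pre-metastatic livers of the same 9 mice and the control livers of 5 other mice.

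Male BALB/c mice aged 4 to 6 weeks received CT26 cells, a colon carcinoma line of the same mouse strain, into the serosa of the cecum, and were sacrificed 3 weeks later. Control mice had the sham operation with an injection of serum-free medium. The tumor is a graft of 1 cell line in a host with its own immune system, each tumor library comes from 1 mouse, and no oxygen level was measured, so the index is a level of transcripts and not of oxygen.

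Cells that lack oxygen stabilize the alpha subunits of the hypoxia-inducible factors (HIF), because prolyl hydroxylases such as Egln1 and Egln3 need oxygen to mark them for destruction by the Vhl ubiquitin ligase. The stabilized subunit pairs with Arnt and binds the core letters ACGTG or GCGTG in regulatory DNA of its target genes. Its targets take up glucose and run glycolysis, carry acid out of the cell, remove mitochondria, cross-link collagen and attract vessels, and they are known to be active in the poorly perfused parts of solid tumors.

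The sequences upstream of 7 genes are given because they carry the binding letters of these factors next to the start of genes described below, and in the case of Hilpda because they lack them. Each run is the 250 bases before the transcription start that RefSeq gives, 5′ to 3′ on the strand of the gene, on the mouse assembly GRCm38.p6, called mm10 in the submitters' processing notes. Capitals mark ACGTG or GCGTG on either strand, so that CACGT and CACGC are the same letters read from the opposite strand, and CACGTG counts as 1 match on each strand.
Car9, chr4:43506776-43507025, plus strand: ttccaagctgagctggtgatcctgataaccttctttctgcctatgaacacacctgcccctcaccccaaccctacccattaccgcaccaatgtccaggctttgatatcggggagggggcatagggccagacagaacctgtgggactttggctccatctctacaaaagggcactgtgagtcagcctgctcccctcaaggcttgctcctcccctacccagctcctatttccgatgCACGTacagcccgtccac
Bnip3, chr7:138909507-138909756, minus strand: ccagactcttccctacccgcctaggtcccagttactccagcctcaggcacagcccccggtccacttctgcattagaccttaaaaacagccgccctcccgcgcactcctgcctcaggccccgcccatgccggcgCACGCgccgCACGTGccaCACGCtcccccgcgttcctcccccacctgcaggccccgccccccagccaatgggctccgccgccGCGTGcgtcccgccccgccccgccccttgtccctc
Slc2a1, chr4:119108495-119108744, plus strand: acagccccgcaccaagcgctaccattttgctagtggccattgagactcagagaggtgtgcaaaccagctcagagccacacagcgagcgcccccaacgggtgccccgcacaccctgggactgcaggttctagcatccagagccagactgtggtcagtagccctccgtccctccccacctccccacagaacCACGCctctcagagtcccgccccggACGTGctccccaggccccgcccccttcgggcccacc
P4ha1, chr10:59323046-59323295, plus strand: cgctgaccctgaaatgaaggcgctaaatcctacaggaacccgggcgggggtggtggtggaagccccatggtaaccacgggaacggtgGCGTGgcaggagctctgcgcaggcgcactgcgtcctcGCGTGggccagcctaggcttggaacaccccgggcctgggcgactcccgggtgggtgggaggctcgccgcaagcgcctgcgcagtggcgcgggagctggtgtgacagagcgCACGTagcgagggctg
P4ha2, chr11:54100674-54100923, plus strand: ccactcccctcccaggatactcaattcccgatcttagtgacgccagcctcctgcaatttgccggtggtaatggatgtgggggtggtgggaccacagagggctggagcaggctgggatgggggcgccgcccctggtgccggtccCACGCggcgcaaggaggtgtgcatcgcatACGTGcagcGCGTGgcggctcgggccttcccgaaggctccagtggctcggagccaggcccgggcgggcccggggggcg
Fam162a, chr16:36071562-36071811, minus strand: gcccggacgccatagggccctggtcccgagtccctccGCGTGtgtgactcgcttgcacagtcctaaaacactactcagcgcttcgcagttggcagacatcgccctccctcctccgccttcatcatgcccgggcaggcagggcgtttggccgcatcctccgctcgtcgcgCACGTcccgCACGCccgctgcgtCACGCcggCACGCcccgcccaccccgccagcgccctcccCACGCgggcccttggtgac
Hilpda, chr6:29272238-29272487, plus strand: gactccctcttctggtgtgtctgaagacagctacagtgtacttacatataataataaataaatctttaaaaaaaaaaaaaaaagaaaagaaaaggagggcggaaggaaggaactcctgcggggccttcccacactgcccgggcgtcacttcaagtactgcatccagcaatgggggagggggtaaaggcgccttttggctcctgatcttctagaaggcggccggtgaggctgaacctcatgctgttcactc

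Of the 6 genes of the index, 5 were matched to a RefSeq window and 4 of these held ACGTG, with Vegfa holding neither motif. In Car9 the single match begins at position -18 relative to the start, and Bnip3 held 5 matches. Among 13 windows of the genes that rose with the index, 5 held ACGTG (38.5%) and 9 held either motif (69.2%), against 20.8% and 53.7% of the 11612 windows of genes tested and 16.6% and 38.6% of all 32851 RefSeq windows. Among 3 windows of the genes that fell, 1 held ACGTG (33.3%), and the same 1 held either motif. The rising window of Higd1a lay 561 bases from the deposited start. With so few windows the shares were not tested, and nothing is concluded from their difference. A match is a description of letters and not a bound site, and a window without one says only that these letters are absent from it.

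The 23 libraries held 44587556 to 79773163 counts, and the 9 tumors 47005276 to 70884436. In the tumors the 10 most abundant genes took 4.78% to 5.74% of the counts. Spearman's rho of the index with total counts was -0.22, and with the share of those 10 genes 0.50, both over the 9 tumors and given as descriptions. The tumor libraries were all distinct: for the closest pair, M7 and M8, chi-square over genes divided by its degrees of freedom was 49.7, far above sampling noise. Of 15 marker genes of colon epithelium, 14 did not exceed 5.47 RPKM in any tumor, among them Epcam with at most 1.88 RPKM and Cdh1 with at most 1.02. The exception was Krt20, a keratin of gut epithelium, at 27.8 to 113 RPKM.

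The 9 tumors formed a gradient, and by Dixon's criterion no tumor's index was set apart from the others. The index was highest in the tumor of mouse M1 (1.30), followed by M6 (1.01), M5 (0.735), M8 (0.442), M2 (-0.128), M12 (-0.226), M7 (-0.758), M4 (-1.13) and M10 (-1.24). The order did not change when the index was built from the 4 markers Car9, Bnip3, Egln3 and Ndrg1, with a pseudocount of 0.1, from TMM-scaled counts, or as the first principal component.

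**Figure D1:**
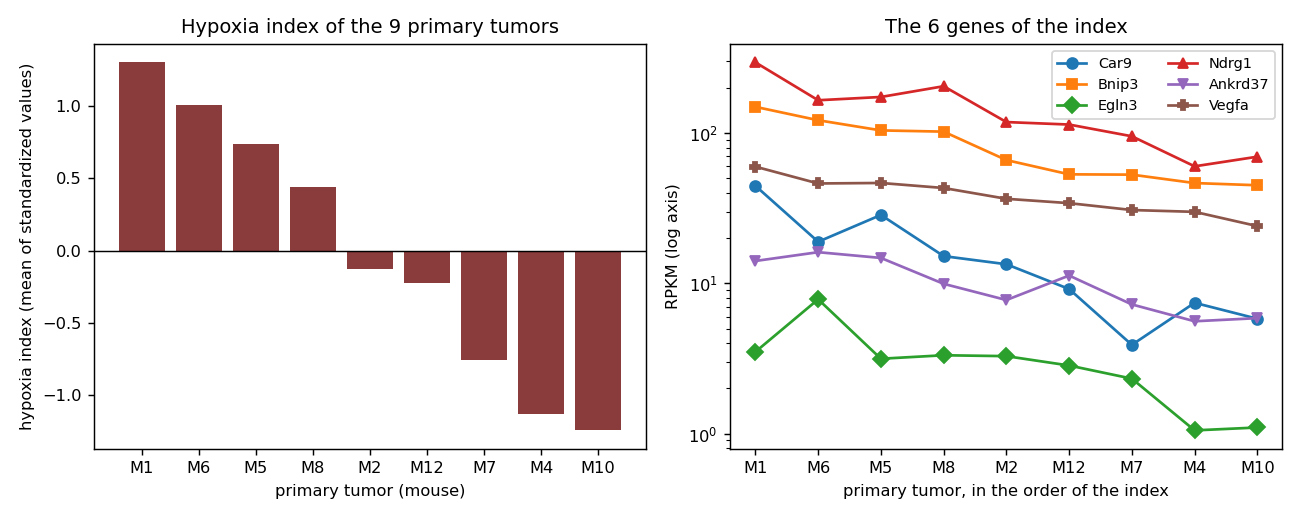
The left panel gives the hypoxia index of each of the 9 primary tumors, and the right panel the RPKM of the 6 index genes on a log axis in the same order of tumors, 1 point per tumor. M1 lies highest for Car9, Bnip3, Ndrg1 and Vegfa, M6 for Egln3 and Ankrd37, and M4, M7 or M10 lowest for each gene.

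The 6 genes chose the order, so their values describe it and are not tested. Car9, a membrane carbonic anhydrase that carries acid away from the cell, covered the widest range, from 3.89 RPKM in M7 over a median of 13.4 to 44.5 in M1, which is 11.4-fold. Egln3, the prolyl hydroxylase that HIF itself induces, ran from 1.05 RPKM in M4 over a median of 3.15 to 7.82 in M6, which is 7.46-fold, and its second highest value was 3.50 in M1. Ndrg1, a stress-induced gene linked to differentiation, ran from 60.1 RPKM in M4 over 118 to 296 in M1, a span of 4.92-fold. Car9 and Ndrg1 were therefore highest in M1 and Egln3 in M6.

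Bnip3, which drives the removal of mitochondria, ran from 44.9 RPKM in M10 over 66.1 to 150 in M1 and followed the index of the other 5 genes in exact rank order (rho = 1). Ankrd37, a HIF target with ankyrin repeats, ran from 5.59 RPKM in M4 over 9.92 to 16.1 in M6. Vegfa, the main growth factor for vessels, had the narrowest range, from 24.0 RPKM in M10 over 36.5 to 59.8 in M1. Over the 15 pairs of these genes rho lay between 0.767 and 0.983 across the 9 tumors, the lowest for Ndrg1 with Ankrd37 and the highest for Bnip3 with Vegfa.

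In the livers the same genes did not form 1 level. Ndrg1 stayed between 2.67 and 13.9 RPKM in the livers of tumor-bearing mice, below each tumor, and Ankrd37 did not exceed 0.484 RPKM there. Bnip3 ran from 161 to 231 RPKM in the 5 control livers, above each of the 9 tumors, and from 42.5 to 130 RPKM in the pre-metastatic livers. Car9 was at most 0.0686 RPKM in the control livers and reached 2.47 RPKM in 1 of the pre-metastatic livers. These liver values share the tumors' table and are given as levels only.

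Across the other 17772 genes, edgeR's quasi-likelihood test on the counts gave each gene a slope, the log2 change for 1 standard deviation (SD) of the index. At a Benjamini-Hochberg adjusted p under 0.05, 17 genes rose with the index (0.0957% of the genes tested) and 6 genes fell (0.0338%), together 0.129%. At an unadjusted p under 0.05 there were 717 rising (4.03%) and 712 falling genes (4.01%), together 1429 (8.04%). The rises ran from 0.34 to 2.30 on this log2 scale and the falls from -0.94 to -2.33. All 23 genes kept the sign of their slope in each fit that left out 1 tumor, and all 23 had an exact Spearman p under 0.01. Both were seen on the tumors and the index that chose these genes, so they describe the calls and are no separate support. The number called was not stable: without M1 or without M4 edgeR called 0 genes at the adjusted threshold, with 596 rising and 616 falling at an unadjusted p under 0.05 without M1, and 559 and 586 without M4. DESeq2 called 133 rising and 87 falling genes with all 9 tumors, the 23 among them.

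By rank, 182 genes rose (1.02%) and 150 fell (0.844%) with the index at a two-sided exact Spearman p under 0.01. After Benjamini-Hochberg adjustment 0 genes passed 0.05 by the exact Spearman test, the smallest adjusted p being 0.0979, while 1294 had an unadjusted p under 0.05. The adjusted p of 0.0979 belongs to a gene in the exact order of the index, and with 9 tumors no gene can have a smaller exact p. That the rank test called no single gene was thus nearly fixed by the numbers of tumors and genes, and nothing is concluded from it. The genes named as rising or falling below are those of the edgeR test.

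Of the 17 rising genes, 10 belong to the lists of glycolysis, of other HIF targets and of vessel growth factors. These lists hold 26, 36 and 8 of the 17772 genes tested. Hilpda, which blocks fat breakdown in lipid droplets, followed the index most closely by rank among the genes called. It ran from 20.4 RPKM in M10 over a median of 39.7 to 70.4 in M1, with a slope of 0.56 ± 0.06 (SE, n = 9; adjusted p = 0.0125 by edgeR's quasi-likelihood test) and rho of 0.983. M2 and M8 exchanged places, and the other tumors held the order of the index. Fam162a, a mitochondrial protein induced by HIF, was the most abundant of the called genes, from 121 RPKM in M4 over 158 to 240 in M1, and rose by 0.34 ± 0.04 (adjusted p = 0.0142 by edgeR).

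Slc2a1, the main glucose transporter of the plasma membrane and a HIF target, ran from 39.8 RPKM in M4 over 74.6 to 147 in M1 and rose by 0.62 ± 0.07 (adjusted p = 0.0142 by edgeR). Its values in M1, M8, M6 and M5 lay at 147, 113, 107 and 104 RPKM, above those of the other tumors. Eno2, an enolase of glycolysis, ran from 13.4 RPKM in M10 over 20.4 to 42.7 in M1 and rose by 0.62 ± 0.08 (adjusted p = 0.0177 by edgeR). It was almost silent in the pre-metastatic livers, at 0.0321 to 0.311 RPKM.

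The prolyl 4-hydroxylases that prepare collagen for its triple helix rose as a pair. P4ha2 ran from 10.7 RPKM in M4 over 18.6 to 38.8 in M1, with 38.7 in M5, and its slope was 0.63 ± 0.09 (adjusted p = 0.0202 by edgeR). P4ha1 ran from 35.1 RPKM in M10 over 44.9 to 65.8 in M5, and its slope was 0.34 ± 0.05 (adjusted p = 0.0229 by edgeR). Higd1a and Bnip3l, which act on mitochondria, rose by 0.44 and 0.41. Higd1a lay between 16.3 RPKM in M10 and 41.0 in M1, and Bnip3l between 20.8 in M4 and 53.6 in M1.

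Among the secreted factors, Apln, the peptide ligand apelin of the vessel wall, ran from 21.5 RPKM in M4 over 25.0 to 47.9 in M1, with a slope of 0.39 ± 0.06 (adjusted p = 0.0271 by edgeR). Adm, the vessel-dilating peptide adrenomedullin, was low and ran from 1.42 RPKM in M10 over 3.32 to 6.82 in M6. Its slope of 0.72 ± 0.12 missed the threshold (adjusted p = 0.0572 by edgeR). Mxi1, a repressor of Myc targets, rose by 0.38 from 6.77 RPKM in M4 to 17.1 in M1.

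The other rising genes lie outside the lists. Ier3, an early response gene, had the smallest p of the genes tested (adjusted p = 0.0125 by edgeR) with a slope of 0.62 ± 0.06, and ran from 16.9 RPKM in M4 over 27.8 to 55.5 in M6. Ccng2, an atypical cyclin found in resting cells, rose by 0.55 ± 0.08, from 14.6 RPKM in M4 to 48.4 in M6. Arhgap29 rose by 0.49 and Appl2, an endosomal adaptor, by 0.37. Arhgap29 ran from 4.62 RPKM in M10 to 11.99 in M1, and Appl2 from 5.46 in M4 to 11.5 in M1.

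Prl2c2, a member of the prolactin family, had the largest slope (2.30 ± 0.30, adjusted p = 0.0172 by edgeR), and 1 tumor decided its size. It stood at 56.1 RPKM in M1, while M8 had the next value at 5.42 RPKM and M10 the lowest at 0.319, and without M1 the slope was 1.43. Near-identical copies of this gene exist in the mouse genome, so the assignment of its reads is uncertain. The called genes ENSMUSG00000109881.1 (slope 0.66) and ENSMUSG00000091479.1 (slope 0.74) are annotated as antisense RNAs inside Bnip3 and Ndrg1. The library kit is taken here not to mark the strand, and the strand setting of the counting is not given. Their reads were therefore treated as inseparable from those of the index genes, and they are not read as genes beside the index.

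**Figure D2:**
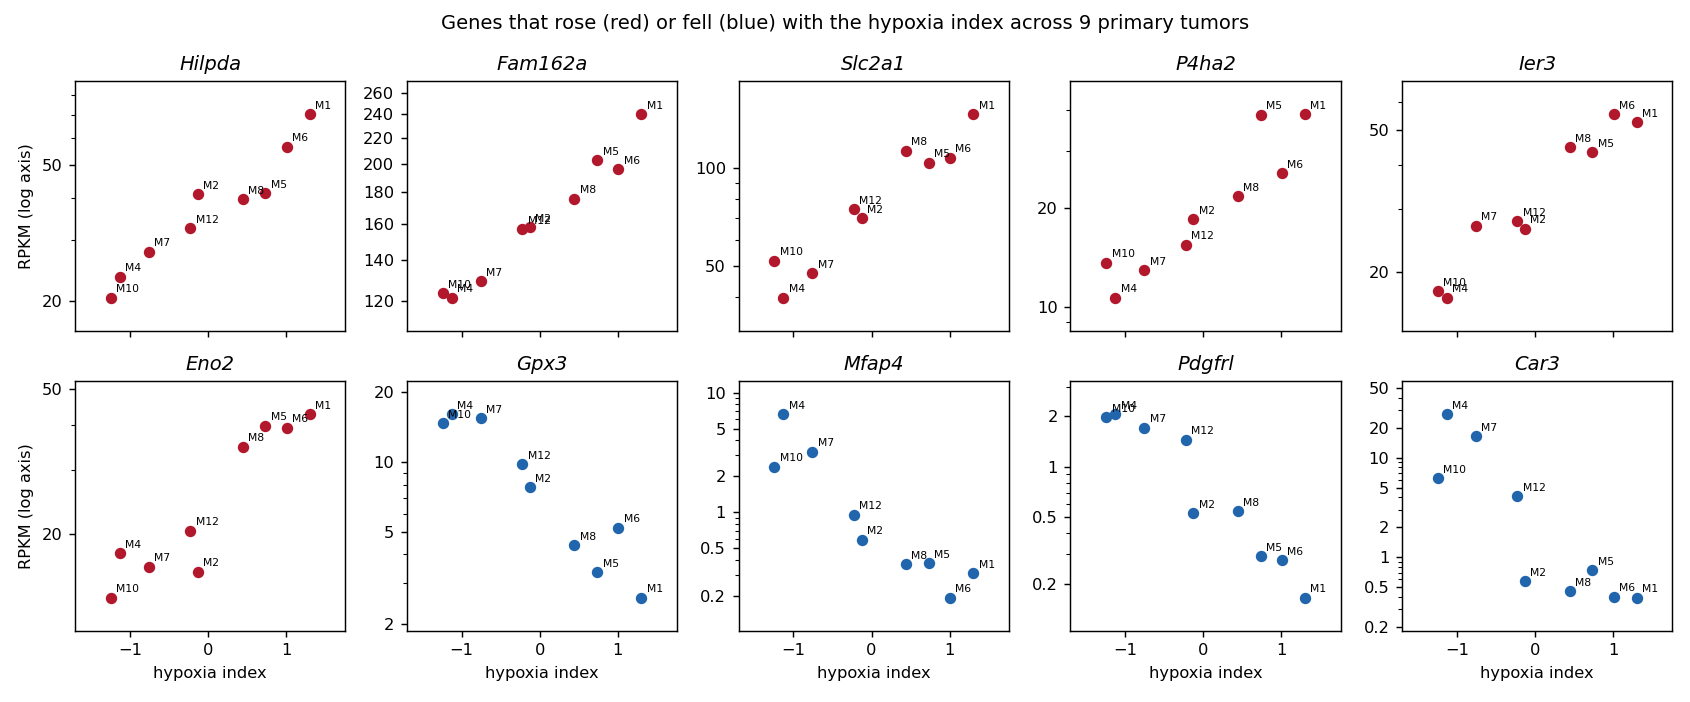
Each panel plots the RPKM of 1 called gene (log axis) against the hypoxia index, 1 labelled point per tumor, in red for genes that rose and in blue for genes that fell. Hilpda and Fam162a climb along the whole order from M10 or M4 to M1, while Mfap4 and Car3 are highest in M4 and M7.

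The 6 falling genes were Gpx3, Pdgfrl, Mfap4, Crispld2, Svep1 and Car3, and 0 of them stood in a list. Gpx3, a secreted glutathione peroxidase, ran from 2.60 RPKM in M1 over 7.79 to 16.1 in M4, and its slope was -0.94 ± 0.11 (adjusted p = 0.0142 by edgeR). M7, M4 and M10 lay at 15.5, 16.1 and 14.8 RPKM and M12 at 9.78. Sod3, the extracellular superoxide dismutase, ran from 0.257 RPKM in M1 to 5.83 in M4, and its slope of -1.37 ± 0.22 missed the threshold (adjusted p = 0.0540 by edgeR).

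Mfap4, a protein of elastic fibres, ran from 0.193 RPKM in M6 over 0.590 to 6.62 in M4, and its slope was -1.68 ± 0.22 (adjusted p = 0.0177 by edgeR). Car3, a carbonic anhydrase of muscle, fat and liver, was at or below 0.742 RPKM in M1, M6, M5, M8 and M2, and at 4.11 in M12, 6.22 in M10, 16.4 in M7 and 27.4 in M4, with a slope of -2.33 ± 0.36 (adjusted p = 0.0370 by edgeR). Pdgfrl, a relative of the PDGF receptor, fell by 1.33, Svep1, a large adhesion protein, by 1.19, and Crispld2, a secreted protein, by 0.95 on the log2 scale. These last 3 genes were low, the highest tumor reaching 2.06 RPKM for Pdgfrl, 0.887 for Svep1 and 1.78 for Crispld2.

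Skeletal muscle RNA was present in M4 and M7, which both had a low index. Ckm, the muscle creatine kinase, stood at 113 RPKM in M4 and 19.2 RPKM in M7, and at most at 0.584 RPKM in the other 7 tumors, and the summed level of 12 muscle genes was 673 RPKM in M4 against a median of 4.23. With Ckm as a covariate, and likewise without M4 and M7, edgeR called 0 genes at the adjusted threshold. At an unadjusted p under 0.05 there were then 484 rising and 527 falling genes with Ckm, and 523 and 537 without both tumors. All 23 called genes kept their sign and an unadjusted p under 0.05 under either setting, with Gpx3 at -0.87 and -0.81, Slc2a1 at 0.52 and 0.49, and Car3 at -1.58 and -1.51. The same tumors chose these genes, so this describes the fits and is no separate support. Outside M4 and M7, Car3 was highest in M10 and M12, the tumors that also held the most RNA of the albumin gene Alb. Whether liver RNA bears on the slope of Car3 was not tested. In a bulk tumor fewer cells of a type and less RNA per cell cannot be told apart.

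Most glycolysis genes had a slope above 0. Of 26 genes, 2 rose by edgeR (Slc2a1 and Eno2), 0 fell, 8 passed the exact Spearman threshold upward and 23 had a slope above 0. Their median slope was 0.22, against -0.01 over all 17772 genes tested, 8450 of which had a slope above 0. Of those 17772 genes, 0.0957% rose by edgeR and 1.02% passed the Spearman threshold upward. Aldoa, fructose-bisphosphate aldolase, had a slope of 0.28 ± 0.06 and rho of 0.900, from 230 RPKM in M7 to 490 in M1, and its adjusted p was 0.175 by edgeR. Pgm2, a phosphoglucomutase, had a slope of 0.34 ± 0.07 with the same adjusted p of 0.175 by edgeR.

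Of the glycolysis and sugar genes the study names, Pgk1 had a slope of 0.32 ± 0.09, Pfkl 0.25 ± 0.08, Tpi1 0.22 ± 0.07, Hk1 0.15 ± 0.06 and Galk1 0.14 ± 0.06, with adjusted p between 0.308 and 0.623 by edgeR. Pgk1, phosphoglycerate kinase, was abundant throughout, from 530 RPKM in M2 over 718 to 1317 in M1. Ldha, which makes lactate, had a slope of 0.24 and Pdk1, which closes the entry of pyruvate into mitochondria, of 0.37, both with an adjusted p of 0.272 by edgeR. Pfkfb4, Pfkm and Slc16a1 had slopes at or below -0.04, so the list did not move as a block.

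Of 36 other HIF targets, 7 rose by edgeR and 0 fell, 16 passed the exact Spearman threshold upward and 0 downward, and the median slope was 0.26. Among all 17772 genes tested, 0.0957% rose by edgeR and 1.02% passed the Spearman threshold upward, and the median slope was -0.01. The 7 are P4ha1, P4ha2, Higd1a, Mxi1, Hilpda, Fam162a and Bnip3l. Ero1l, an oxidase of the endoplasmic reticulum, had a slope of 0.50 and Plod2, a collagen lysyl hydroxylase, of 0.46, with adjusted p of 0.108 and 0.101 by edgeR. At the other end Ppfia4 had a slope of -0.60, Lox of -0.28 and Loxl2 of -0.23, none past the threshold. Lox and Loxl2 cross-link collagen and belong to the known HIF targets, as do the collagen hydroxylases that rose.

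The HIF subunits and their regulators, a list that leaves out Egln3 as a gene of the index and Egln1 as one of the other HIF targets, had 0 calls among 13 by edgeR in either direction (1 at an unadjusted p under 0.05, 0 by DESeq2) and a median slope of -0.04. At that unadjusted p the share of all genes tested was 8.04%. Egln1, the oxygen-dependent hydroxylase of HIF, had a slope of 0.30 ± 0.06, rho of 0.833 and an adjusted p of 0.133 by edgeR. Hif1a lay between 21.4 RPKM in M12 and 33.9 in M8, with a slope of -0.04 ± 0.06, and Epas1, the HIF2 alpha gene, had -0.16 ± 0.18. Arnt had a slope of 0.09 and Vhl of 0.17 ± 0.06, with adjusted p of 0.676 and 0.418 by edgeR.

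Among 8 ligands for vessel receptors, Apln was the 1 gene called, and Apln, Pgf and Angpt2 rose with an exact Spearman p under 0.01. The shares rising by these measures were 0.0957% and 1.02% of all genes tested. Pgf, placental growth factor, ran from 1.66 RPKM in M10 over 3.53 to 7.44 in M6, with a slope of 0.51 ± 0.13 and an adjusted p of 0.260 by edgeR. Angpt2, the angiopoietin that loosens vessels, ran from 3.90 RPKM in M10 over 6.73 to 13.8 in M6, with a slope of 0.50 ± 0.11 and an adjusted p of 0.181 by edgeR. Both were highest in M6, as Egln3 was. Of 19 endothelial markers 0 were called by edgeR (1 rising and 2 falling at an unadjusted p under 0.05, 1 rising by DESeq2), with a median slope of -0.06. Slopes were below 0 for 11 of them and above 0 for 8. Among all genes tested, 4.03% rose and 4.01% fell at that unadjusted p, and DESeq2 called 133 rising. Esm1, a gene of endothelial tip cells, had a slope of 0.37 ± 0.10, and Kdr, the receptor of Vegfa, -0.23 ± 0.10, with adjusted p of 0.295 and 0.610 by edgeR. Esm1 had a median of 187 RPKM, far above the endothelial markers Pecam1 (15.4) and Cdh5 (12.2). Which cells of the tumor transcribed Esm1 was not tested.

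Genes of growth and respiration had small slopes in 1 direction. Of 26 cell cycle genes 25 had a slope below 0 (median -0.13), and all 22 genes of the respiratory chain and ATP synthase did (median -0.10). Over all 17772 genes tested, 9322 had a slope below 0, and 4.01% fell at an unadjusted p under 0.05. By edgeR 0 of either list were called at the adjusted threshold, with 5 and 7 falling at an unadjusted p under 0.05, and 0 by DESeq2. Ndufa9, a complex I subunit, ran from 56.6 RPKM in M6 to 90.1 in M4 with a slope of -0.15 ± 0.05. Tyms, thymidylate synthase, ran from 5.44 RPKM in M8 to 9.64 in M10 with a slope of -0.17 ± 0.06, and its adjusted p was 0.467 by edgeR. Genes within either list are co-regulated and were measured in the same libraries, so the shared direction is not the result of independent genes.

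**Figure D3:**
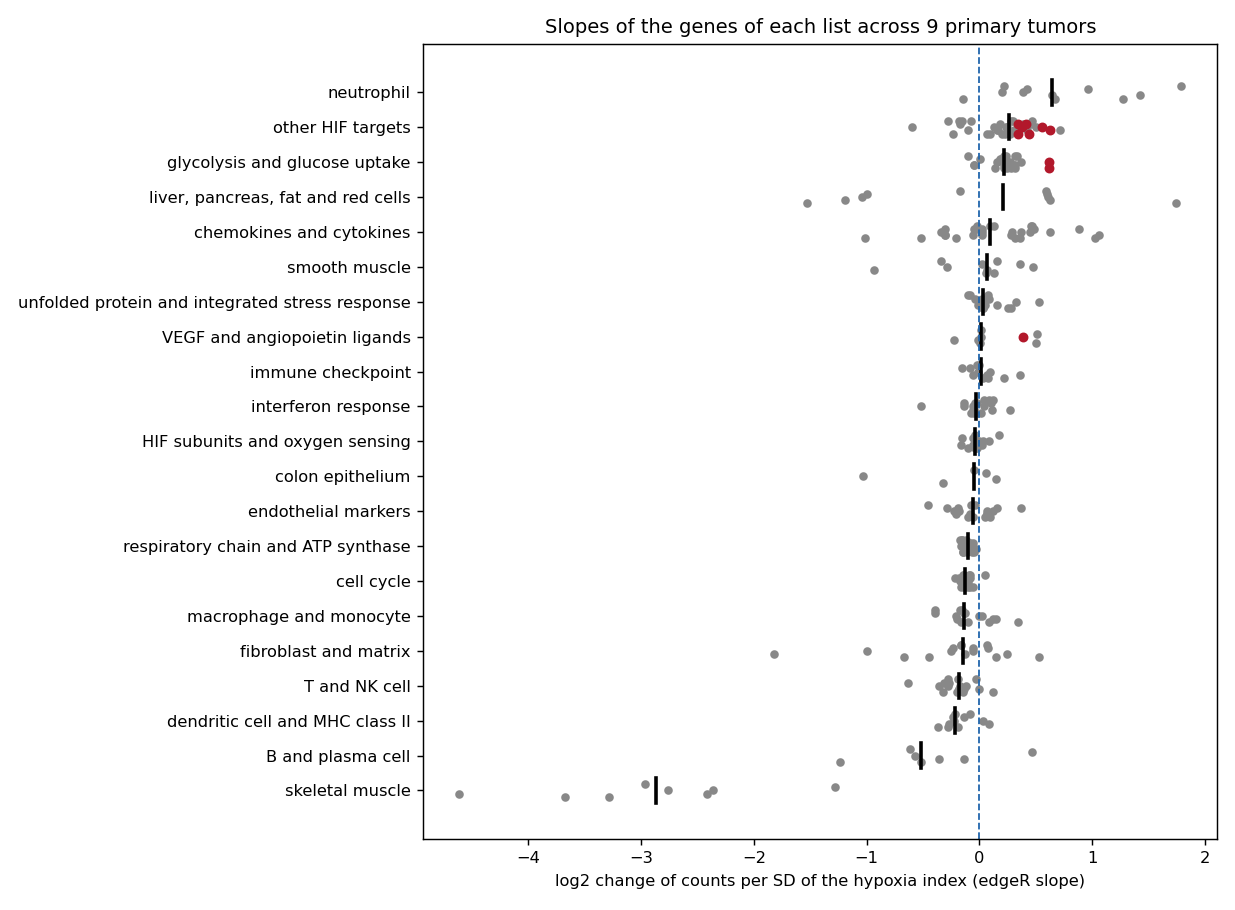
Each row is a gene list and each point the edgeR slope of 1 gene, the log2 change of counts per SD of the hypoxia index, in red where the adjusted p is under 0.05. Black bars are list medians and the dashed line is the median of all genes tested (-0.01), and the red points lie in the lists of other HIF targets, glycolysis and vessel ligands.

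Neutrophil genes had large positive slopes that missed the adjusted threshold. S100a8, a subunit of the neutrophil protein calprotectin, ran from 3.42 RPKM in M10 over 25.3 to 89.6 in M1, with a slope of 1.27 ± 0.37 and an adjusted p of 0.332 by edgeR. S100a9, its partner, ran from 2.63 RPKM in M4 over 35.2 to 148 in M1. M1, M8 and M6 were the 3 highest tumors for both, while M5, which followed M6 in the index, stood at 11.6 and 16.7 RPKM. Of 11 neutrophil genes tested 0 passed the adjusted threshold by edgeR (6 rising at an unadjusted p under 0.05, 2 by DESeq2), 10 had a slope above 0, and the median slope was 0.65. Over all 17772 genes tested, 8450 had a slope above 0, and 4.03% rose at an unadjusted p under 0.05. The summed level of the 14 neutrophil genes was lowest in M4 (24.6 RPKM), had a median of 104 and was highest in M1 (302). With S100a8 as a covariate edgeR called 0 genes at the adjusted threshold (308 rising and 349 falling at an unadjusted p under 0.05), while all 23 called genes kept their sign and an unadjusted p under 0.05. Those genes were chosen on the same tumors, so their sign is a description and no separate support. The part of neutrophil content in the result beyond the fit with S100a8 was not tested.

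Of the chemokines, Cxcl1, a ligand of the neutrophil receptor Cxcr2, ran from 1.65 RPKM in M4 over 3.71 to 14.8 in M1, with a slope of 1.03 ± 0.25 and rho of 0.900, and its adjusted p was 0.238 by edgeR. Cxcl5, a second ligand of that receptor, had a slope of 0.89 ± 0.23 and Cxcl14 of -1.02 ± 0.24, with adjusted p of 0.272 and 0.236 by edgeR. Ccl28, which the study names, was near 0, with at most 0.0907 RPKM, and had a slope of 0.31 ± 0.23. Of 29 chemokines and cytokines tested 0 were called by edgeR (5 rising and 1 falling at an unadjusted p under 0.05, 3 and 1 by DESeq2), and the median slope was 0.10. At that p 4.03% of all 17772 genes tested rose and 4.01% fell, and DESeq2 called 133 and 87.

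The other cell lists had 0 calls by edgeR at the adjusted threshold. The median slope was -0.13 for 16 macrophage and monocyte genes (0 rising and 2 falling at an unadjusted p under 0.05), -0.18 for 18 T and NK cell genes (0 and 1), -0.52 for 7 B and plasma cell genes (0 and 1) and -0.22 for 11 genes of dendritic cells and MHC class II (0 and 1), and DESeq2 called 0 in each. The shares of all 17772 genes tested at that unadjusted p were 4.03% rising and 4.01% falling. Ptprc, the antigen common to leukocytes, ran from 10.8 RPKM in M1 to 23.01 in M5, and its rho with the index was -0.40 (exact p = 0.291, n = 9). Without M1 and M6, the tumors farthest from the median index, the sign changed, with rho of 0.286 (exact p = 0.556). Of 12 immune checkpoint genes 0 had an unadjusted p under 0.05 by edgeR or were called by DESeq2, and Cd274, the gene of PD-L1, had a slope of 0.22 ± 0.22.

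Fibroblast and matrix genes were split. Of 16 genes, 4 passed the exact Spearman threshold downward and 0 upward, 0 were called by edgeR (1 rising and 6 falling at an unadjusted p under 0.05) and 4 falling by DESeq2, with a median slope of -0.14. Of all 17772 genes tested, 0.844% passed the Spearman threshold downward, and DESeq2 called 87 falling. At an unadjusted p under 0.05 by edgeR, 4.03% of them rose and 4.01% fell. Postn, the matrix protein periostin, ran from 0.335 RPKM in M5 over 1.46 to 12.4 in M4, with 11.5 in M7, a slope of -1.82 ± 0.32 and an adjusted p of 0.0848 by edgeR. Bgn, biglycan, ran from 12.2 RPKM in M1 to 71.1 in M4 with a slope of -0.66 ± 0.13, and Col1a1, the alpha 1 chain of type I collagen, from 50.9 in M6 to 133 in M4 with -0.45 ± 0.12. Dcn, decorin, had a slope of the other sign, 0.53 ± 0.19. Without M4 and M7 the slope of Postn was -0.98.

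Red cell genes had positive slopes as well. Hbb-bs, a beta globin, ran from 19.9 RPKM in M4 over 55.0 to 152 in M1, with a slope of 0.61 ± 0.15, rho of 0.883 and an adjusted p of 0.259 by edgeR. Its tumor levels lay below those of the pre-metastatic livers, 223 to 552 RPKM. Alb, the liver's albumin, reached 173 RPKM in M12 and 86.4 in M10 but at most 15.0 in the other 7 tumors, and had a slope of -1.53 ± 0.86.

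**Figure D4:**
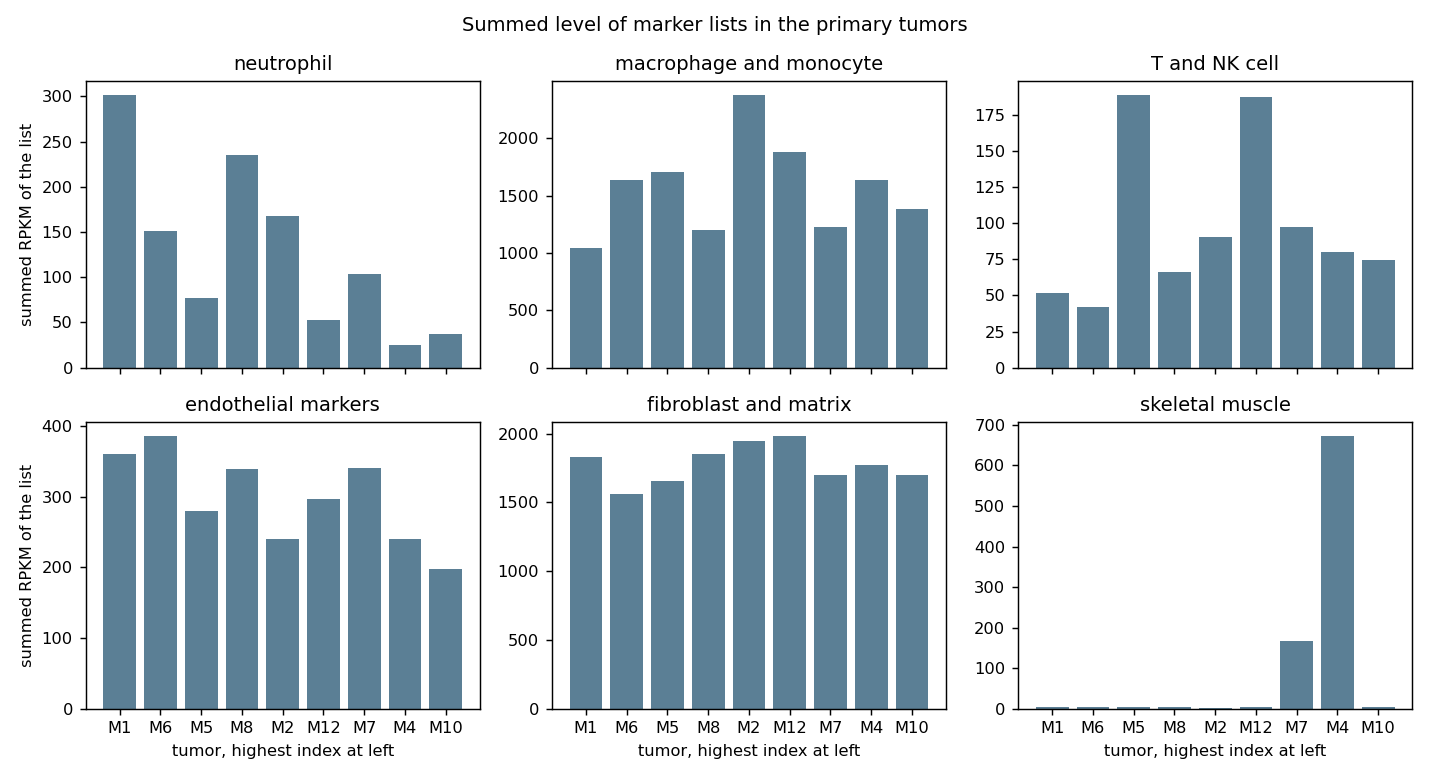
Bars give the summed RPKM of all genes of 6 marker lists in each of the 9 primary tumors, with the tumor of highest hypoxia index at the left. The neutrophil sum is highest in M1 (302 RPKM) and lowest in M4 (24.6), and the skeletal muscle sum is high in M4 (673) and M7 only. The endothelial sum has a median of 297 RPKM and includes Esm1, whose own median is 187.

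The genes most like the index were chosen by Spearman's rho and then Pearson's r over the 9 tumors. Gm31888, a predicted gene at no more than 0.416 RPKM, held the exact order of the index (rho = 1), followed by Hilpda, Gm32404 and Gm38850 (rho = 0.983 each) and Fam162a (0.967). The genes most unlike it were Pdgfrl, Gtf2h5, a subunit of the repair and transcription factor TFIIH, Mrpl12, a mitochondrial ribosome protein, and Psmd6, a proteasome subunit (rho = -0.967 each), with Erh (-0.95). Gtf2h5 ran only from 25.8 to 34.2 RPKM and Psmd6 from 71.6 to 89.0, so these close orders rest on small changes.

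The liver of the same mouse was then set beside the index of its tumor. The study relates the tumor to myeloid-derived suppressor cells (MDSC) in the liver. For its mouse model it reports a positive Spearman correlation between a tumor hypoxia score and the liver MDSC fraction. It also reports positive correlations in patient datasets, there with the MDSC fraction of metastatic liver. By its Spearman test these did not all have a p under 0.05. The genes of its hypoxia score are not given in the sources used here, so its coefficient is not comparable with the rho below. The MDSC score, an ssGSEA score of 36 mouse genes matched to the set the study names, without CXCL8 and CEACAM8, for which no mouse gene was matched, lay between 0.193 and 0.242 in the pre-metastatic livers, with a median of 0.220, and between 0.157 and 0.175 in the 5 control livers. Across the 9 mice it followed the tumor index with rho of 0.733 (exact permutation p = 0.0311, adjusted over 5 relations 0.156) and r of 0.672 (exact permutation p = 0.0486, adjusted 0.243). M1 and M6 were farthest from the median index, both at its high end. Without them rho was 0.464 (exact p = 0.302) and r 0.421 (exact p = 0.344), so the relation did not pass 0.05. It did not pass 0.05 either without M1, M5, M6 or M8 alone, which gave rho of 0.619 to 0.643 with exact p of 0.0962 to 0.115. Without M2, M4, M7, M10 or M12 alone rho was 0.762 to 0.857, with unadjusted exact p of 0.0107 to 0.0368.

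The mice fell into 2 sets by the clock genes of their livers. In 4 mice (M1, M2, M10 and M12) Dbp, Per3 and Ciart were high relative to Arntl, Npas2 and Clock, and in 5 they were low. With ranks centred within these sets the MDSC score gave rho of 0.667 with the tumor index (exact p = 0.103). The tumor's own clock index gave rho of 0.0333 with the hypoxia index (exact p = 0.948). The acute-phase score of the liver, from genes such as Saa1 and Lcn2, gave rho of 0.300 (exact p = 0.437), with r of 0.283 (exact p = 0.450). The same 6 hypoxia genes scored in the liver gave rho of -0.167 (exact p = 0.678), with 0.133 within the clock sets. With 9 mice none of these relations passed 0.05 after adjustment.

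**Figure D5:**
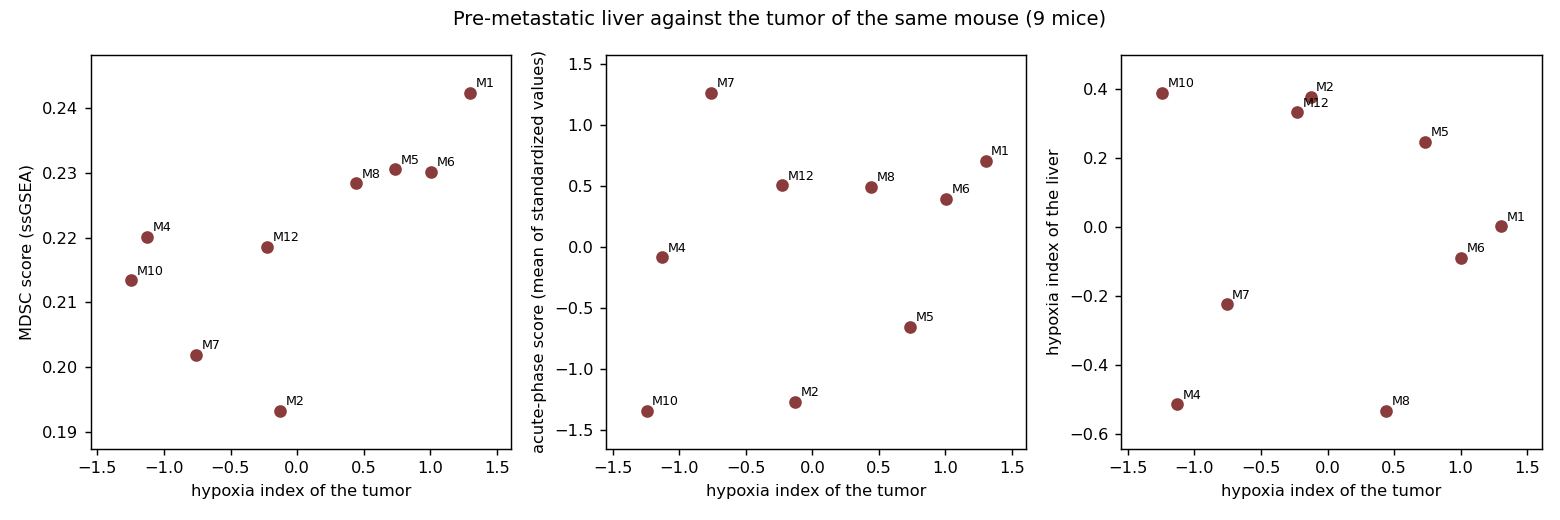
Each panel sets a score of the pre-metastatic liver against the hypoxia index of the tumor of the same mouse, 1 point per mouse. The MDSC score is highest in M1 (0.242) and lowest in M2 (0.193), and the other 2 scores show no order along the index.

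Gene by gene, the 9 pre-metastatic livers held 0 of 16206 genes (0.0%) that edgeR's quasi-likelihood test called along the tumor index, with 792 at an unadjusted p under 0.05 (4.89%), and DESeq2 called 3 rising and 1 falling. This fit was added after the tumor results were known.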

How the data were processed

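RNA-seq libraries were made from poly(A) RNA of 9 primary tumors, the 9 pre-metastatic livers of the same mice and 5 control livers with the NEBNext Ultra kit, which is taken here not to mark strand. The submitters' processing notes name HISAT2, HISAT, HTSeq 0.6.0 and the build mm10, and the annotation and the strand setting are not given in the sources used here. The authors deposited the raw count of each gene in each library and its RPKM. RPKM computed anew from the deposited counts and gene lengths differed from the deposited values by a relative 1.75e-06 at most. Counts, not RPKM, entered the gene tests, and RPKM entered the index, the ranks and the levels. Each column was matched to a sample by mouse number and tissue, and the columns left without a sample numbered 0.

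The index was computed on log2(RPKM + 1). Slopes were fitted to the 9 tumors with edgeR 4.0.16 in R 4.3.3 (TMM, quasi-likelihood test, two-sided, Benjamini-Hochberg adjustment over the 17772 genes outside the index), with DESeq2 1.42.0 as an alternative. Exact Spearman p values used all pairings of the 9 tumors. ssGSEA used an exponent of 0.25. Fits and ranks were tested on simulated data. A count limits the precision of each low value, and intervals from the fit cover the spread between mice. The 6 genes, the lists and the tests were chosen with earlier results of these data known, and skeletal muscle and the S100a8 covariate were added after the values were seen. A gene was named if it belonged to the index, had one of the 10 largest slopes in either direction among called genes with a mean of at least 1 RPKM, was among the 4 smallest p of a list, was named by the study, or was among the 5 most like or unlike the index. The other called genes and a few list members were named after their values were seen. Scores were computed in Python 3.11.15 with numpy 2.4.6, pandas 2.3.3 and scipy 1.17.1, and figures drawn with matplotlib 3.10.9.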

Additional observations from a re-analysis of the deposited data

Results flagged for a closer look

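Of 145 values tested over the 9 tumors, 7 had 1 tumor whose gap to its neighbour exceeded Dixon's critical share of the whole range of log2(RPKM + 1), and chance gives such a gap in about 1 in 20 groups. The number flagged is thus near what chance gives, and the gaps below are descriptions. Prl2c2 was highest in M1, at 56.1 RPKM before 5.42 in the next tumor, a gap of 0.580 of the range. Fap, a fibroblast protease, was highest in M4 at 3.58 RPKM before 1.18 (0.539), the tumor that also held most skeletal muscle RNA. Hif1a was lowest in M12 at 21.4 RPKM, the next tumor being at 27.5 (0.545).

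M10, the tumor of lowest index, was highest for the B lineage genes Ms4a1 (0.473 RPKM before 0.140, a gap of 0.727) and Mzb1 (2.13 before 0.678, 0.577). Oas2, an interferon-induced antiviral gene, was highest in M5 at 26.1 RPKM before 12.4 (0.578). Epcam, a marker of epithelium, was highest in M2 at 1.88 RPKM before 0.490 in M12 (0.633).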

How the results depend on the processing

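No paired analysis was possible because each mouse gave 1 tumor and the fits ran within tumors. The 17 rising and 6 falling genes became 133 and 87 with DESeq2, which called all 23 again, 18 and 12 without the low-count filter and 10 and 3 with Ptprc as a covariate. Without M1, M4 or M7 the counts dropped most, and leaving out 1 tumor gave 0 to 20 rising and 0 to 14 falling genes. Added after the data were seen, Ckm or S100a8 as a covariate, and leaving out M4 and M7, gave 0 and 0, and an adjustment that counted the 6 index genes among the genes gave 18 and 7, adding Adm and Sod3. The other index definitions and the clock covariate left 16 or 17 rising and 5 to 8 falling. The Spearman counts ran from 114 to 158 rising and from 79 to 136 falling when 1 tumor was left out. The cause of these changes was not tested. Fewer tumors can give fewer calls, which was not tested either. Without M2 edgeR called 20 rising and 7 falling genes.

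For the liver MDSC score rho ran from 0.619 to 0.857 when 1 mouse was left out, and was 0.667 (exact p = 0.103) within the clock sets and 0.650 (exact p = 0.0666) with a mean standardized score, all with the same sign. The liver hypoxia index changed sign to 0.133 within the clock sets and ran from -0.381 to 0.190 when 1 mouse was left out, and the tumor clock index from -0.262 to 0.119. The acute-phase score ran from 0, without M10, to 0.548, without M7, and Ptprc from -0.643 to -0.143. Among uncalled genes, 3 slopes named here changed sign. With 1 tumor left out that of Oas2 ran from -0.074 to 0.22, below 0 without M5, and that of Ms4a1 from -0.76 to 0.15, above 0 without M10. With S100a8 as a covariate that of Alb was 0.55. Low levels limit what can be read from genes such as Ccl28 and Svep1.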
